A study of Homo sapiens with 12 samples.

Results

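Transcript levels of 7 genes that sense RNA or pass on its signal were followed in HaCaT cells, a line of human skin keratinocytes that became immortal without a transgene. The genes were RIGI, IFIH1, DHX58, DDX60, TLR3, EIF2AK2 and MAVS, taken by symbol from a count table of 45372 genes, and all 7 were among the 12878 genes with enough counts to be tested. Wild-type cells either received 408 nm blue light from an LED lamp or served as dark controls, and RNA was collected at 3, 14 or 42 irradiations, giving the groups dark_3, blue_3, dark_14, blue_14, dark_42 and blue_42 with 2 libraries each, lettered a and b. Each irradiation delivered 50 J per cm2 at 4.6 mW per cm2 to cells lying in buffered saline, with 3 sessions in a week and a course of at most 14 weeks. The submitters picked that dose by its lethality, so blue groups hold cells that came through it, and cells were passaged along the way. The labels do not say how dark cells were handled during a session. The 3 dark groups received no light but differ in time in culture, and in the dark series that time and any other change between collections cannot be told apart. These were bulk samples of 1 line, so fewer cells that express a gene and less RNA per cell cannot be told apart.

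Cells find viral or misplaced RNA with helicases in the cytosol and with a receptor in endosomes. RIG-I (RIGI) recognises RNA with a 5' triphosphate end and MDA5 (IFIH1) recognises long double-stranded RNA. Both bind the mitochondrial adaptor MAVS through caspase recruitment domains, and MAVS starts signals that induce interferon. LGP2 (DHX58) resembles them but lacks those domains and tunes their activity, and DDX60 is a related helicase described as an antiviral cofactor. TLR3 senses double-stranded RNA in endosomes and signals through TRIF (TICAM1) instead of MAVS. PKR (EIF2AK2) is a kinase that double-stranded RNA switches on and that halts translation by phosphorylating eIF2 alpha. Several of these genes are themselves induced by interferon, and keratinocytes are a barrier cell in which the pathway is active.

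All 7 are protein-coding genes of the nuclear genome, located here with GENCODE release 29 on GRCh38. RIGI (ENSG00000107201, there under its older name DDX58) spans chr9:32455705-32526324 on the minus strand with up to 18 exons. IFIH1 (ENSG00000115267) spans chr2:162267079-162318703 on the minus strand with up to 16 exons, and DHX58 (ENSG00000108771) spans chr17:42101404-42112733, also minus, with up to 14. DDX60 (ENSG00000137628) lies at chr4:168216293-168318807 on the minus strand with up to 38 exons, and TLR3 (ENSG00000164342) on the plus strand of the same chromosome at chr4:186069152-186088069 with up to 5. MAVS (ENSG00000088888) spans chr20:3846799-3876123 on the plus strand with up to 7 exons. EIF2AK2 (ENSG00000055332) spans chr2:37099210-37157065 on the minus strand with up to 18. Its 3' end overlaps GPATCH11 on the opposite strand by 35 bases. The labels name no strand setting for the counting, so reads in that overlap cannot be assigned to either gene with certainty. The other 6 genes overlap no annotated gene.

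The promoters are shown because interferon-induced genes often carry an interferon-stimulated response element there. Those of RIGI, IFIH1 and DDX60 are printed at greater length, since these genes moved together in the comparisons that follow. Whether such an element had a part in that was not tested. RefSeq promoter sequences (GRCh38.p14, 250 bases before to 50 after the start) were at hand for 6 of the 7 genes, all but DHX58. They were searched on both strands for GAAANNGAAA, the repeated core of that element, whose reverse is TTTCNNTTTC, and this was found in 3.57% of all 35116 promoters searched the same way. Capitals below mark matches to it or to GAAANGAAA, the same core with 1 base between, which was added after the promoters had been read and occurs in 3.12% of promoters. The 3 longer sequences give the promoter 5' to 3' on the gene's own strand up to the first annotated base of the gene, at chr9:32526325-32526446, chr2:162318704-162318934 and chr4:168318808-168319002, all on the minus strand. Capitals that end a sequence begin a match that runs on into the gene. The 4 shorter sequences are 30-base windows around such matches near the RefSeq start or the first annotated base of the gene. They lie at chr2:162318686-162318715 and chr4:168318786-168318815 (minus), chr4:186069142-186069171 (plus) and chr2:37156967-37156996 (minus).
RIGI: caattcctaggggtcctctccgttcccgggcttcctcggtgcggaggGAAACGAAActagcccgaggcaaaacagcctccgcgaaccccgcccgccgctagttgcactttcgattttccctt
IFIH1: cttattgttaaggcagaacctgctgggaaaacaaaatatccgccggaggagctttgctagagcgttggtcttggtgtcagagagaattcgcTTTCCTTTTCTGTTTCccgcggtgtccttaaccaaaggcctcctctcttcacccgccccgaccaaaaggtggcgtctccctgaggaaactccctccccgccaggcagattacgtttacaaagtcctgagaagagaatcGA
DDX60: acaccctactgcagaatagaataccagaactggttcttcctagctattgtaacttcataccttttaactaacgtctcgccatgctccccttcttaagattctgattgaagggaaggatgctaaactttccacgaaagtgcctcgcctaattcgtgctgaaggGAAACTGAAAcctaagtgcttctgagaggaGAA
IFIH1 at the start: gaagagaatcGAAACAGAAAccaaagtcag
DDX60 at the start: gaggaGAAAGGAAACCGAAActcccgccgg
TLR3 at the start: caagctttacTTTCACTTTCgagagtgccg
EIF2AK2 at the start: agtccaagggGAAAACGAAActgagaacca

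The 2-base spacing matched at 3 places in the IFIH1 promoter, beginning 159, 153 and 21 bases before the start, of which the first pair overlap each other and read on the opposite strand. DDX60 had matches 88 and 53 bases before the start, and a 1-base-spaced match 58 bases before it overlaps the latter. TLR3 had 1 match 4 bases before the start, on the opposite strand, and EIF2AK2 had 1 match 6 bases before the start. RIGI held only the 1-base spacing, 203 bases before the start, and MAVS held neither. Since that spacing was added after these promoters had been read, its matches in them are not an independent finding. The GAS-like palindrome TTCNNNGAA, which 7.66% of promoters hold, occurred in DDX60 at 124 bases and in TLR3 at 178 and 50 bases before the start. All these distances count from the RefSeq start. The printed RIGI, IFIH1 and DDX60 sequences end 128, 19 and 55 bases before that start, where the GENCODE gene begins. The 2-base spacing did not set RIGI, IFIH1 and DDX60 apart, since RIGI lacked it while TLR3 and EIF2AK2 held it. These are letter matches in a window around 1 annotated start, and no binding was measured.

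Library totals ran from 2073160 counts in blue_14 b to 8183941 in blue_42 b. Levels are given as CPM, counts set to a common library size by TMM. No length term was used, since QuantSeq 3' chemistry yields about 1 tag per transcript. Orders of level between genes assume that all genes are captured and counted equally, which was not tested. A count of 3 corresponded to between 0.364 and 1.43 CPM. The letters a and b are not described as separate cultures, so p-values reflect the spread between libraries, which may be technical. The libraries of a pair differed by more than counting noise in every group, the ratio of chi-square to its degrees of freedom being 1.62 in dark_3 and 4.72 to 8.30 in the others. All 11 keratinocyte markers searched (keratins, TP63, SFN and others) were present, summing to 5108 to 7959 CPM. Markers of other cell types summed to 1.58 to 6.43 CPM for leukocytes (10 genes), 4.28 to 15.2 for fibroblasts (9), 0.634 to 6.21 for endothelium (5), 10.3 to 16.3 for melanocytes (6) and 61.8 to 238 for neurons (9). Nearly all melanocyte signal was MITF, with 1007 counts over the 12 libraries, against 49 for PMEL, 2 for DCT and 0 for MLANA, TYR and TYRP1. NEFL held 7343 counts and most of the neuron sum.

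MAVS and EIF2AK2 were the most abundant of the 7 in dark_3, with means of 226 and 230.6 CPM, ahead of DDX60 at 117, IFIH1 at 36.1, RIGI at 29.4, DHX58 at 7.87 and TLR3 at 6.13 CPM. In dark_42 DDX60 led with a mean of 392 CPM, above EIF2AK2 at 275 and MAVS at 231 CPM. The 7 genes together took 0.0640% and 0.0643% of all counts in the dark_3 libraries, 0.0856% and 0.0953% in dark_14, and 0.110% and 0.116% in dark_42. The corresponding shares were 0.0623% and 0.0690% in blue_3, 0.0873% and 0.0893% in blue_14, and 0.0842% and 0.0859% in blue_42.

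**Figure D1:**
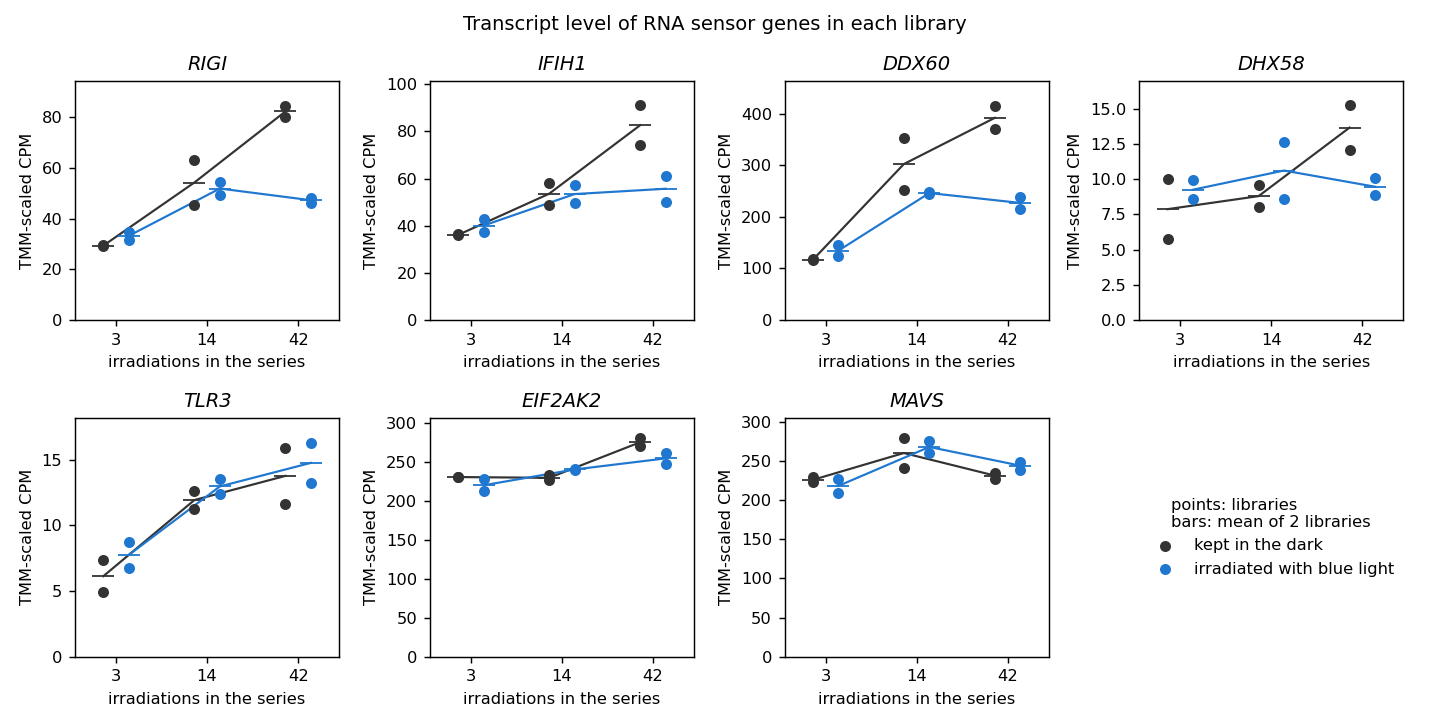
Level of each gene in each of the 12 libraries, in TMM-scaled CPM on a linear axis from 0, against the number of irradiations in the series (evenly spaced categories); points are libraries, bars the mean of 2, lines join the means. RIGI, IFIH1 and DDX60 rise to their highest values in dark_42 (80.0 to 84.5, 74.1 to 91.1 and 369.7 to 414 CPM), while the blue_42 libraries lie near the blue_14 ones and MAVS and EIF2AK2 stay between 209 and 281 CPM.

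RIGI stood at 29.5 and 29.2 CPM in dark_3 a and b, 45.5 and 63.0 in dark_14, and 80.0 and 84.5 in dark_42. In irradiated cells it stood at 31.7 and 34.8 CPM in blue_3 a and b, 54.6 and 49.2 in blue_14, and 48.2 and 46.4 in blue_42. By mean the groups ran dark_3, blue_3, blue_42, blue_14, dark_14, dark_42, and among neighbours in that order only blue_14 and dark_14 overlapped. Thus both dark_42 libraries were above the other 10, and both dark_3 libraries below them.

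IFIH1, the MDA5 gene, had almost the same range. Its values were 36.3 and 35.9 CPM in dark_3 a and b, 49.0 and 58.1 in dark_14, and 91.1 and 74.1 in dark_42. In blue_3, blue_14 and blue_42 they were 37.2 and 42.9, 57.2 and 49.7, and 61.1 and 50.3 CPM. The dark_3 pair was again lowest and the dark_42 pair highest, while blue_14, dark_14 and blue_42 overlapped in the middle.

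DDX60, the cofactor helicase, spanned the widest range. It measured 118 and 116 CPM in dark_3 a and b, 252 and 352 in dark_14, and 369.7 and 414 in dark_42. The irradiated libraries measured 123 and 146 CPM in blue_3, 248 and 244 in blue_14, and 215 and 239 in blue_42. No neighbouring groups overlapped, in the same order as for RIGI.

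DHX58 and TLR3 were scarce and their pairs spread more widely. DHX58, for LGP2, had 9.99 and 5.76 CPM in dark_3 a and b, 15.2 and 12.1 in dark_42, and 10.1 and 8.86 in blue_42, from 40 to 119 counts. Its dark_42 pair lay above both of those groups but reached into the range of blue_14, at 12.6 and 8.59 CPM, the lower of which rested on 18 counts. TLR3 had 4.91 and 7.35 CPM in dark_3 a and b, 6.76 and 8.74 in blue_3, and 11.2 to 16.3 CPM in the other 8 libraries. It thus fell into a low pair of groups at 3 irradiations and a high set of 4 groups that all overlapped their neighbours.

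EIF2AK2, for PKR, kept between 212 and 281 CPM in all libraries. Its highest pair was dark_42, at 281 and 270.0 CPM, and its lowest mean was that of blue_3, 220.1 CPM. MAVS kept between 209 and 279 CPM. It was highest by mean in blue_14, at 275 and 260.2 CPM, and dark_42, at 235 and 227 CPM, overlapped dark_3 at 229 and 223 CPM.

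After 42 irradiations RIGI, IFIH1 and DDX60 were lower in irradiated than in dark cells, while TLR3, MAVS and EIF2AK2 were not separated by the test. RIGI was 1.74-fold lower, a log2 difference of -0.80 ± 0.13 (SE, 95% interval -1.07 to -0.53, edgeR quasi-likelihood adjusted p = 0.00275). DDX60 was 1.73-fold lower, at -0.79 ± 0.13 (interval -1.07 to -0.51, adjusted p = 0.00362). IFIH1 was 1.48-fold lower, at -0.57 ± 0.13 (interval -0.85 to -0.29, adjusted p = 0.0369). By p-value RIGI ranked 22, DDX60 32 and IFIH1 133 among all 12878 genes. The 3 of 7 genes called lower stand beside 0.388% of all genes. In 5 of the 7 genes both blue_42 libraries lay below both dark_42 libraries, against 20.9% of all genes.

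DHX58, the remaining RIG-I-like receptor, differed by -0.53 ± 0.23 in the same comparison (interval -1.003 to -0.06, adjusted p = 0.301), with both irradiated libraries below both dark ones. EIF2AK2 also had both irradiated libraries below, by -0.11 ± 0.10 (interval -0.32 to 0.10, adjusted p = 0.696). For the adaptor MAVS, with both irradiated libraries above as in 21.3% of all genes, the difference was 0.08 ± 0.11 (interval -0.15 to 0.30, edgeR adjusted p = 0.828). TLR3 overlapped, at 0.10 ± 0.20 (interval -0.33 to 0.52, adjusted p = 0.894). The intervals for MAVS and EIF2AK2 do not reach the estimates for RIGI, DDX60 or IFIH1. That of EIF2AK2 overlaps the interval for IFIH1, and no test compared the genes with each other.

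With 2 libraries a group, 1 library could decide a call at 42 irradiations. RIGI missed the threshold only without blue_42 b (-0.77, adjusted p = 0.0808), DDX60 without dark_42 b (-0.70, 0.0503), blue_42 a (-0.72, 0.0912) or blue_42 b (-0.86, 0.0532), and IFIH1 without dark_42 a (-0.41, 0.193), blue_42 a (-0.72, 0.0840), blue_42 b (-0.43, 0.412), dark_3 a (-0.57, 0.0821) or dark_3 b (-0.57, 0.0814). Keratinocyte markers summed to 5108 and 5623 CPM in dark_42 and to 6239 and 6608 CPM in blue_42, with 1 of 11, SFN, called higher in blue_42 (0.58 ± 0.12, adjusted p = 0.0170). Neuron markers summed to 61.8 and 101 CPM in dark_42 and to 80.4 and 106 in blue_42, and none of those 9 genes or of the 7 tested leukocyte, fibroblast, endothelial and melanocyte markers was called. The part of these markers in the result was not tested.

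**Figure D2:**
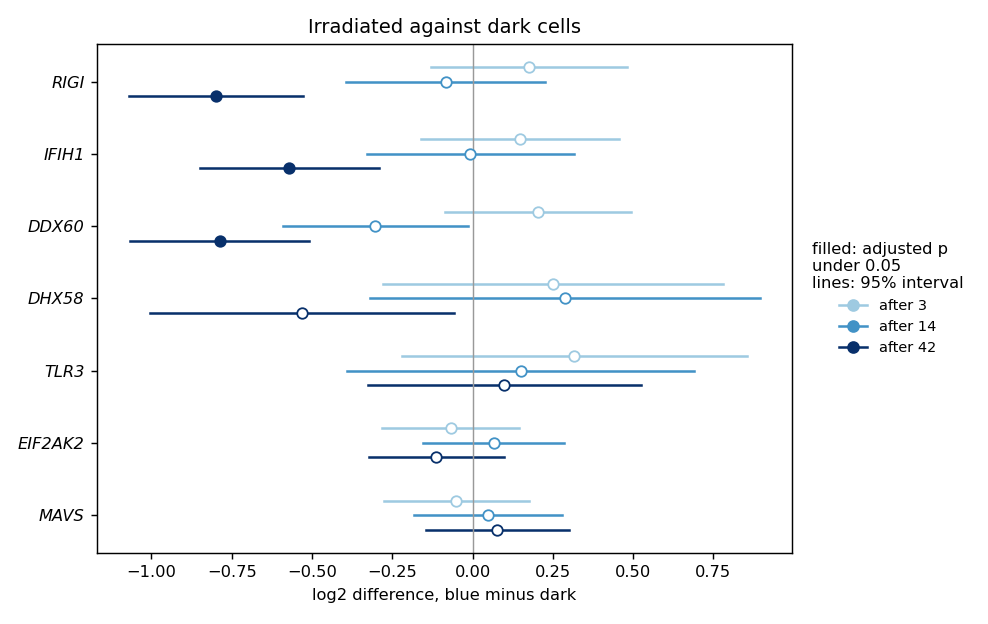
Log2 difference between irradiated and dark cells for each gene after 3, 14 and 42 irradiations, from the edgeR fit; lines are 95% intervals over 12 libraries in 6 groups and filled points have an adjusted p under 0.05. The filled points are RIGI (-0.80), IFIH1 (-0.57) and DDX60 (-0.79) after 42 irradiations.

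After 3 irradiations none of the 7 genes was called, where 2 genes in all were (0.0155% of those tested) and 891 had an unadjusted p under 0.05. DESeq2 called 1 gene in that comparison and none of the 7. RIGI differed by 0.18 ± 0.15 (interval -0.13 to 0.48, adjusted p = 0.847), IFIH1 by 0.15 ± 0.15 (interval -0.16 to 0.45) and DDX60 by 0.20 ± 0.14 (interval -0.09 to 0.49). In each of these 3 genes both irradiated libraries lay above both dark ones, the opposite of their order after 42 irradiations, and 23.7% of all genes had both irradiated libraries above at this stage. TLR3 differed by 0.32 ± 0.26, DHX58 by 0.25 ± 0.25, MAVS by -0.05 ± 0.11 and EIF2AK2 by -0.07 ± 0.10. Neuron markers stood at 174 to 178 CPM in dark_3 and 205 to 238 in blue_3, with 9 of 9 above 0 and 1, SYT1, called, and fibroblast markers at 4.28 to 5.04 and 8.21 to 9.07 CPM. Their part in these values was not tested.

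After 14 irradiations edgeR called no gene at all (0% of those tested, 758 with an unadjusted p under 0.05), and DESeq2 called 2, neither of them among the 7. DDX60 had both irradiated libraries below both dark ones, at -0.30 ± 0.14 (interval -0.59 to -0.01, edgeR adjusted p = 0.834). EIF2AK2 had both above. Either order was found in 16.6% of all genes. RIGI differed by -0.08 ± 0.15 (interval -0.39 to 0.23) and IFIH1 by -0.01 ± 0.16 (interval -0.33 to 0.32), and their groups overlapped. The differences were 0.29 ± 0.29 for DHX58, 0.15 ± 0.26 for TLR3, 0.05 ± 0.11 for MAVS and 0.07 ± 0.11 for EIF2AK2. This time point held the smallest library, blue_14 b, with 103 counts of RIGI and 26 of TLR3.

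Whether light had a different effect after 42 than after 3 irradiations was tested directly. The effect on RIGI was lower after 42 by -0.98 ± 0.20 (interval -1.38 to -0.57, adjusted p = 0.0280) and that on DDX60 by -0.99 ± 0.19 (interval -1.39 to -0.59, adjusted p = 0.0246). These 2 of 7 were called lower, against 0.163% of all genes. IFIH1 differed between the time points by -0.72 ± 0.20 (adjusted p = 0.138), DHX58 by -0.78 ± 0.34 (adjusted p = 0.388), TLR3 by -0.22 ± 0.33, MAVS by 0.13 ± 0.15 and EIF2AK2 by -0.04 ± 0.14. Both calls were lost when any 1 of dark_3 a, dark_3 b, blue_3 b, dark_42 b, blue_42 a or blue_42 b was left out, with differences of -0.91 to -0.998 for RIGI and -0.86 to -1.05 for DDX60 and adjusted p of 0.0813 to 0.212.

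The other pairs of time points gave no call among the 7. From 14 to 42 irradiations, where 0.0544% of genes were called, the effect on RIGI moved by -0.72 ± 0.20 (adjusted p = 0.260), that on IFIH1 by -0.56 ± 0.21 and that on DDX60 by -0.49 ± 0.19. From 3 to 14 irradiations, where 0.0388% were called, the effect on DDX60 moved by -0.51 ± 0.20 (adjusted p = 0.490) and that on RIGI by -0.26 ± 0.21. These tests share libraries with one another and with the comparisons above.

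The dark cells themselves changed over the series. Between dark_3 and dark_42 RIGI rose 2.80-fold (1.49 ± 0.14, edgeR adjusted p = 4.47e-07), IFIH1 2.29-fold (1.19 ± 0.14, adjusted p = 1.02e-05), DDX60 3.36-fold (1.75 ± 0.14, adjusted p = 1.01e-07), TLR3 2.23-fold (1.15 ± 0.24, adjusted p = 0.00209) and DHX58 1.75-fold (0.81 ± 0.24, adjusted p = 0.0240). DDX60 ranked 6 and RIGI 19 by p-value among all genes. These 5 of 7 stand beside 9.47% of all genes called higher, and 6 of 7 had both dark_42 libraries above both dark_3 libraries, against 32.7% of genes. EIF2AK2 differed by 0.26 ± 0.10 (interval 0.04 to 0.47, adjusted p = 0.0866) and MAVS by 0.03 ± 0.11 (interval -0.19 to 0.26, adjusted p = 0.862). The called genes were the helicases and TLR3, while the kinase PKR and the adaptor were not called. No test compared these sets. TLR3 missed the threshold without dark_3 a (0.90, adjusted p = 0.0649), and DHX58 without dark_3 b (0.45, 0.348) or dark_42 a (0.63, 0.125). DHX58 also missed it with DESeq2 (0.79, 0.0762) and in a fit on the 4 compared libraries alone (0.80, 0.0506), so that 4 of the 7 were then called. Keratinocyte marker sums were 6980 and 7198 CPM in dark_3 against 5108 and 5623 CPM in dark_42, with 4 of 11 called lower, and leukocyte markers summed to 1.58 and 1.90 against 4.23 and 5.85 CPM, with 2 of 10 tested and 1 called higher. Of 9 neuron markers 2 were called lower (174 and 178 against 61.8 and 101 CPM in sum), and CDH5, the 1 endothelial marker tested, was called higher. Whether these had a part in the rise was not tested.

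Part of that rise was already present in dark_14. From dark_3 to dark_14 DDX60 rose 2.60-fold (1.38 ± 0.14, adjusted p = 5.15e-06), TLR3 1.90-fold (0.93 ± 0.25, adjusted p = 0.0196), RIGI 1.88-fold (0.91 ± 0.14, adjusted p = 0.000548) and IFIH1 by 0.58 ± 0.15 on the log2 scale (adjusted p = 0.0135). These were 4 of 7, against 8.11% of all genes called higher. DHX58 differed by 0.20 ± 0.26, MAVS by 0.20 ± 0.11 and EIF2AK2 by -0.01 ± 0.10. IFIH1 missed the threshold without dark_3 a (0.59, adjusted p = 0.111), dark_3 b (0.57, 0.116) or dark_14 b (0.44, 0.145), and TLR3 without dark_3 a (0.67, 0.220), dark_14 a (0.84, 0.127) or dark_14 b (1.02, 0.0558). Of 9 neuron markers 8 were called higher in dark_14 (median log2 difference 2.49), although the sum over all 9 was 152 to 175 CPM against 174 to 178 in dark_3. NEFL went the other way, from a mean of 146 CPM in dark_3 to 76.7 CPM in dark_14. All 3 fibroblast markers tested (median 2.70) and CDH5 (2.31) were called higher as well. Whether these moves had a part in the rise of the sensor genes was not tested.

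From dark_14 to dark_42 RIGI rose a further 1.49-fold (0.57 ± 0.13, adjusted p = 0.0114) and IFIH1 1.53-fold (0.61 ± 0.14, adjusted p = 0.0103), 2 of 7 against 1.81% of all genes. DHX58 differed by 0.60 ± 0.24 (adjusted p = 0.145), DDX60 by 0.37 ± 0.13 (adjusted p = 0.104), EIF2AK2 by 0.26 ± 0.10 (adjusted p = 0.135), TLR3 by 0.22 ± 0.22 and MAVS by -0.17 ± 0.11. RIGI missed the threshold without dark_14 a (0.39, adjusted p = 0.179) or dark_42 b (0.53, 0.0593), and IFIH1 without dark_14 a (0.51, 0.125) or dark_42 a (0.45, 0.0989). DDX60 passed it without dark_14 b (0.64, 0.0188). The dark_14 libraries lay apart for RIGI, 45.5 and 63.0 CPM, and for DDX60, 252 and 352 CPM. Over the same interval 7 of 9 neuron markers (median -2.64) and 2 of 3 tested fibroblast markers (median -3.09) were called lower, and their part was not tested.

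**Figure D3:**
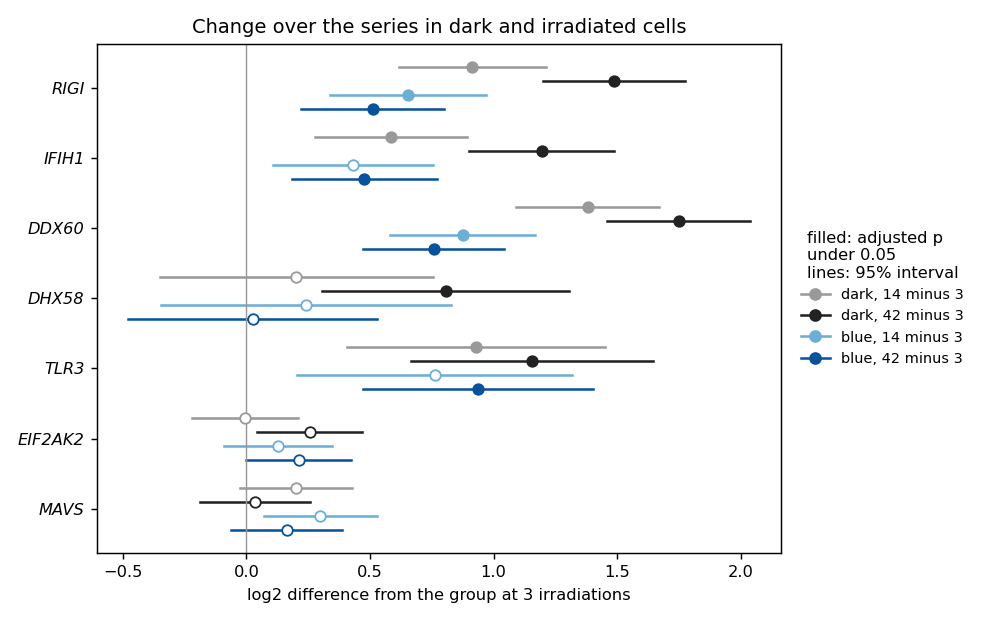
Log2 difference of the 14- and 42-irradiation groups from the 3-irradiation group, separately in dark and in irradiated cells; lines are 95% intervals from the edgeR fit and filled points have an adjusted p under 0.05. RIGI, IFIH1 and DDX60 show a larger difference in dark cells at 42 (1.49, 1.19 and 1.75) than in irradiated cells (0.51, 0.48 and 0.76), while TLR3 shows 1.15 and 0.94.

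The irradiated cells changed in the same direction over the series, by smaller amounts at 42 irradiations for RIGI and DDX60, which is the difference of light effects tested above. From blue_3 to blue_42 TLR3 rose 1.91-fold (0.94 ± 0.22, adjusted p = 0.0129), DDX60 1.69-fold (0.76 ± 0.14, adjusted p = 0.00152), RIGI 1.42-fold (0.51 ± 0.14, adjusted p = 0.0274) and IFIH1 1.39-fold (0.48 ± 0.14, adjusted p = 0.0423). These 4 of 7 stand beside 4.40% of all genes called higher. EIF2AK2 differed by 0.21 ± 0.10, MAVS by 0.16 ± 0.11 and DHX58 by 0.03 ± 0.24. TLR3 was therefore called higher at 42 than at 3 irradiations in dark and in irradiated cells, and its difference between those changes is the -0.22 ± 0.33 given above.

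The calls in irradiated cells rested on few libraries. RIGI missed the threshold without any 1 of the 4 libraries compared (0.42 to 0.58, adjusted p = 0.0803 to 0.208), as did IFIH1 (0.32 to 0.61, 0.0690 to 0.326), and IFIH1 also without dark_3 a or dark_3 b (0.48, 0.0721 and 0.0720). DDX60 missed it without blue_3 a (0.62, 0.0531), and TLR3 without blue_3 a (0.73, 0.164) or blue_42 a (0.77, 0.111). DESeq2 called DDX60 and TLR3 but neither RIGI (adjusted p = 0.0688) nor IFIH1 (adjusted p = 0.101). Between blue_3 and blue_42, 7 of 9 neuron markers (median -2.04) and 2 of 3 tested fibroblast markers (median -2.63) were called lower and CDH5 higher (2.35), and their part in these results was not tested.

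From blue_3 to blue_14 DDX60 rose 1.83-fold (0.87 ± 0.14, adjusted p = 0.00130) and RIGI 1.57-fold (0.65 ± 0.15, adjusted p = 0.0159), 2 of 7 against 3.62% of genes. RIGI missed the threshold without any 1 of the blue_3 or blue_14 libraries (0.56 to 0.72, adjusted p = 0.0682 to 0.0930). TLR3 differed by 0.76 ± 0.27 (adjusted p = 0.0942), IFIH1 by 0.43 ± 0.16 (adjusted p = 0.104) and MAVS by 0.30 ± 0.11 (adjusted p = 0.110). From blue_14 to blue_42 none of the 7 was called, where 31 genes were in all (0.241%) and DESeq2 called 61 without any of the 7. RIGI then differed by -0.14 ± 0.15 (interval -0.45 to 0.16) and DDX60 by -0.12 ± 0.14 (interval -0.40 to 0.17). So RIGI was called higher in dark_42 than in dark_14, while no difference from blue_14 to blue_42 was called, and the test of those changes against each other is the -0.72 ± 0.20 given above, which missed the threshold.

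Over the 12 libraries RIGI and DDX60 followed each other most closely. Pearson's r of log2 CPM was 0.977 between them, the highest value for RIGI among 8688 other genes with a mean of at least 10 CPM, and 0.957 between RIGI and IFIH1. The genes nearest to RIGI after DDX60 were SH3GLB1 (0.969), FAM111A (0.962), SPAG9 (0.961), TTC39B (0.958), IFIH1, FGF2 (0.954) and IFIT2 (0.954). Among the genes nearest to IFIH1 were the interferon-stimulated IFIT2 (0.968), RIGI, PXK (0.953) and IFIT3 (0.946). DDX60 lay closest to RIGI, FAM111A (0.976), SPAG9 (0.975), OASL (0.969) and FGF2 (0.963). These r describe 12 points that share 6 groups and their library depths.

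The other 4 genes had different nearest patterns. TLR3 was closest to ITPRIPL2 (0.932), USP31 (0.931), SERPINB4 (0.929), ITGAV (0.929) and VPS13C (0.921), and its r with RIGI was 0.767. EIF2AK2 was closest to CD2AP (0.960), HELLS (0.943), NAA25 (0.924), PAXBP1 (0.917) and OSBPL8 (0.917), with 0.779 to RIGI. MAVS was closest to FAM83A (0.899), MAFF (0.887), HAS3 (0.882), PTK6 (0.877) and HELZ2 (0.874), with 0.308 to RIGI and 0.0953 to EIF2AK2. DHX58 had no value above 0.853 (TMEM205), followed by WASHC4 (0.808), CDC42EP2 (0.797), SCML1 (0.792) and ZDHHC6 (0.783). Its r with RIGI was 0.685.

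Of the genes listed here as acting beside or below these sensors, 1 was called after 42 irradiations, where 1.23% of all genes were called. The 7 sensor genes had a median log2 difference of -0.53, against 0.00 over all genes. Of 20 cofactors and activators of the RIG-I-like receptors, 1 was called, ZC3HAV1, an antiviral zinc-finger protein, at -0.48 ± 0.12 (322 to 231 CPM from dark to blue, adjusted p = 0.0486), and their median was -0.01. None of 17 negative regulators, 11 eIF2 alpha kinases and PKR partners or 10 other nucleic acid sensors was called, with medians of 0.01, -0.02 and -0.06. Among 19 adaptors, kinases and transcription factors below MAVS and TLR3 none was called and the median was -0.14. The TLR3 adaptor TICAM1 stood at 11.9 CPM in dark_42 and 17.5 in blue_42 (0.56 ± 0.16, adjusted p = 0.0954).

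Genes known to be induced by interferon held 6 further lower calls after 42 irradiations. Of all genes 0.388% were called lower and 0.839% higher. OASL, a relative of the 2'-5' oligoadenylate synthetases that binds RIG-I, was at 226 CPM in dark_42 and 128 in blue_42 (-0.82 ± 0.11, adjusted p = 0.000783), the 1 call among 6 genes of that family and RNase L. Of 25 interferon-stimulated effector genes 5 were called lower and none higher, with a median of -0.26. They were ISG15, a ubiquitin-like modifier (-1.01 ± 0.18), its ligase HERC5 (-0.94 ± 0.16), IFI44 (-0.91 ± 0.16), and the RNA-binding IFIT2 (-0.80 ± 0.12) and IFIT3 (-0.53 ± 0.13, adjusted p = 0.0493). None of 18 interferon receptors and JAK-STAT factors was called (median 0.07), where 1.23% of all genes were called either way.

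In dark cells most interferon-stimulated effectors were called higher at 42 than at 3 irradiations, as were 5 of the 7 sensor genes. Of the 25 effectors, 21 were called higher and none lower, against 9.47% and 8.26% of all genes. Their median log2 difference was 1.15, the same as that of the 7 sensor genes, against 0.02 over all genes. OAS1 (1.44 ± 0.13), OAS2 (1.02 ± 0.14), OAS3 (0.65 ± 0.13) and OASL (1.92 ± 0.12) were called higher, as were 5 of 18 receptor and JAK-STAT genes, among them IRF1 (1.25 ± 0.20), with TYK2 lower (-0.58 ± 0.14). DDX60L, a neighbouring paralog of DDX60 with its own counts, went from 20.8 to 36.6 CPM (0.81 ± 0.14, adjusted p = 0.000639). Whether reads of DDX60 and DDX60L were mixed was not tested.

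The signalling genes between sensors and interferon held calls in both directions, beside 9.47% of all genes called higher and 8.26% called lower in dark_42 against dark_3. Below MAVS and TLR3, TRAF5, TANK, IKBKE and IRF7 were called higher in dark_42 than dark_3, by 0.84 ± 0.28, 0.87 ± 0.21, 0.72 ± 0.15 and 0.99 ± 0.24, and TICAM1 lower (-0.93 ± 0.16, 22.7 to 11.9 CPM, adjusted p = 0.000482), with a median of 0.16 over 19 genes. TLR3 and its adaptor TICAM1 therefore changed in opposite directions in dark cells. The cofactor list had 2 called higher, ZC3HAV1 and DDX60L, and 2 lower, ZCCHC3 and G3BP1, with a median of -0.05, shares near those of all genes. Of 17 negative regulators 4 were called higher and none lower, TNFAIP3, NLRX1, TRIM38 and TAX1BP1, with a median of 0.11. Beside PKR, 2 of 11 genes were called lower, among them PPP1R15A (-0.61 ± 0.13).

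In irradiated cells from 3 to 42 irradiations 11 of the 25 effectors and the same OAS genes, OAS1, OAS2, OAS3 and OASL, were called higher, against 4.40% of all genes, with medians over the 25 effectors and 6 OAS and RNase L genes of 0.58 and 0.62 against 0.00 over all genes. TICAM1 was lower there too (-0.51 ± 0.15, adjusted p = 0.0396). Interferon genes themselves were hardly counted. Of 12 type I and III interferon genes listed none was tested, 9 (IFNB1, IFNA1, IFNA2, IFNA5, IFNA8, IFNW1, IFNL2, IFNL3 and IFNL4) had no count in any library, and IFNL1 had at most 6, IFNE 5 and IFNK 1 in a library. A count of 0 allows up to 0.364 to 1.43 CPM, for counting error only. The endosomal RNA receptors TLR7 and TLR8 had at most 1 and 0 counts in any library, so TLR3 was the only one of the 3 with a measurable level.

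**Figure D4:**
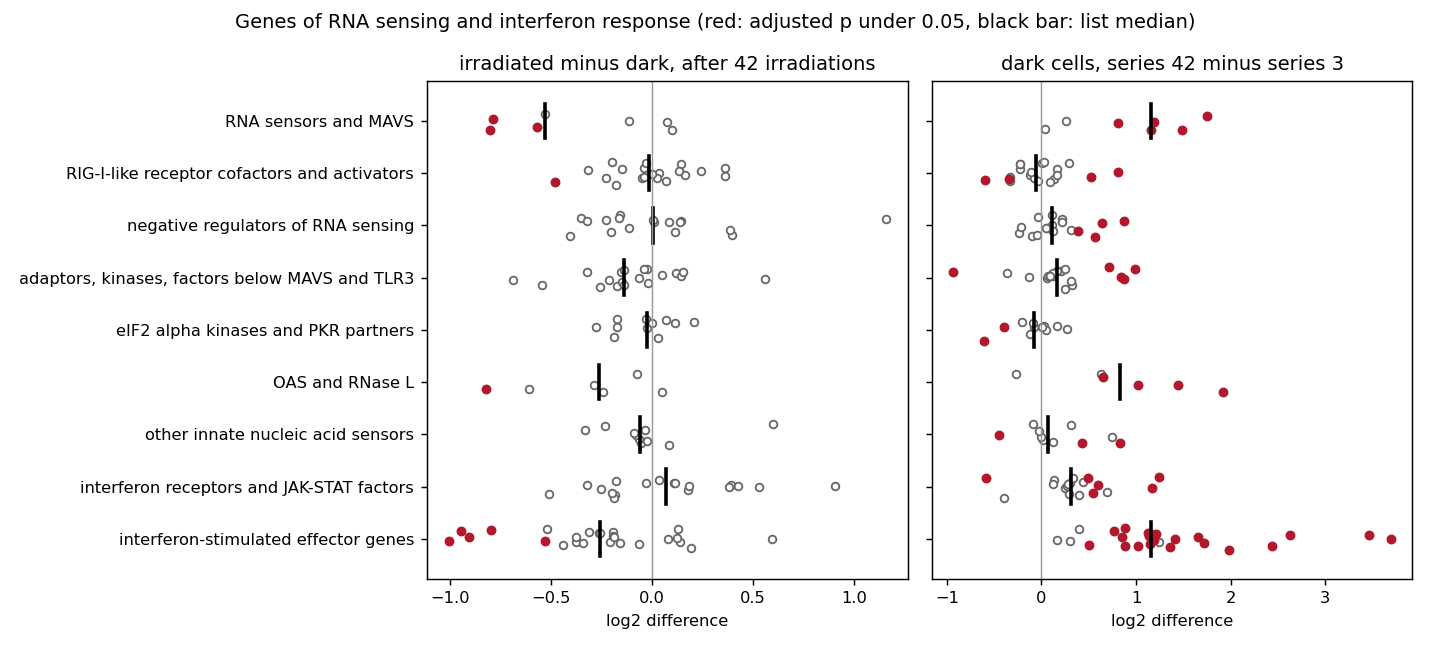
Log2 difference of each tested gene on 9 lists, for irradiated minus dark cells after 42 irradiations and for dark cells at 42 minus 3 irradiations; each point is a gene, red where the adjusted p is under 0.05, and black bars are list medians. The sensor genes have medians of -0.53 and 1.15 and the interferon-stimulated effectors of -0.26 and 1.15, while the cofactors lie at -0.01 and -0.05.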

How the data were processed

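The authors deposited whole-number read counts per gene, 1 column per library, not normalized. STAR, featureCounts and GRCh38 are named in the submitters' processing notes. Their versions, the annotation, the strand setting and any molecular identifiers are not given in these sources. Libraries were grouped by title into 6 groups of 2. Genes were kept by filterByExpr (minimum count 10), scaled by TMM and fitted with edgeR 4.0.16 in R 4.3.3 (robust quasi-likelihood, 6 group means over all 12 libraries, two-sided tests, Benjamini-Hochberg over 12878 genes within each of 12 comparisons). Genes with an adjusted p below 0.05 are the called ones. The ± beside a log2 difference is its standard error, from the F statistic, and intervals are at 95%. The script was tested on simulated data. Correlations used log2 CPM with a prior count of 2.

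The genes, gene lists and marker lists were chosen with earlier results of these data known. Named genes were the 7 sensor genes, called members of the lists, and the 8 (RIGI) or 5 (others) nearest patterns. TICAM1 at 42 irradiations and the interferon genes without counts were named from those lists after their values were seen. Some genes that met the rule are not reported here, while all counts include them. Alternatives were RLE scaling, DESeq2 1.42.0, no filter, a filter at 5 CPM in 2 libraries, non-robust estimation, the replicate letter entered as a block, only the compared libraries, no 14-irradiation libraries, and leaving out each library.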

Additional observations from a re-analysis of the deposited data

Results flagged for a closer look

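The effect of light on 2 of the genes differed between stages of the series by a test of the difference itself. For RIGI the blue minus dark difference after 42 irradiations was lower than that after 3 by -0.98 (edgeR adjusted p = 0.0280), and for DDX60 by -0.99 (adjusted p = 0.0246). After 3 irradiations both irradiated libraries lay above both dark ones in either gene, as in 23.7% of all genes, and after 42 both lay below, as in 20.9%. Both calls were lost in several fits that left out 1 library, as given above. No other gene of the 7 met this test in the main fit, while IFIH1 met it with no filter (edgeR adjusted p = 0.0240) and in no other alternative. With 2 libraries per group no library could be examined for standing apart from its group.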

How the results depend on the processing

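Of 1631 log2 values under the alternatives, 1533 kept their direction and side of the threshold, 58 lost and 3 gained a call, and 37 changed sign, none of which belonged to a called difference. The number of the 7 genes called ran from 0 to 3 for blue_42 minus dark_42 over the fits that left out 1 library, from 0 to 2 for the light effect at 42 minus that at 3, from 2 to 4 for dark_14 minus dark_3, from 4 to 5 for dark_42 minus dark_3, from 0 to 3 for dark_42 minus dark_14, from 1 to 2 for blue_14 minus blue_3 and from 0 to 4 for blue_42 minus blue_3. Those fits lend the lone library of a reduced group the spread of the other groups. DESeq2 called 2 of the 7 for blue_42 minus blue_3, and a fit on the compared libraries alone called 1 for dark_42 minus dark_14. IFIH1 at 42 irradiations missed the threshold with non-robust estimation (adjusted p = 0.0506) and in the fit on the compared libraries alone (0.0909). The causes were not tested.

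Sign changes on leaving out 1 library concerned differences that were not called, the largest being 0.29 for DHX58 in blue_14 minus dark_14. For blue_3 minus dark_3 the ranges were DHX58 -0.11 to 0.69 and MAVS -0.11 to 0.0053. For blue_14 minus dark_14 the ranges were RIGI -0.27 to 0.20, IFIH1 -0.13 to 0.14, DHX58 -0.071 to 0.50 and MAVS -0.059 to 0.15. For blue_42 minus dark_42 the range was TLR3 -0.10 to 0.34. For the light effect at 42 minus that at 3 the ranges were TLR3 -0.54 to 0.036 and EIF2AK2 -0.095 to 0.014. For the light effect at 42 minus that at 14 the ranges were TLR3 -0.25 to 0.19 and MAVS -0.076 to 0.14. For the light effect at 14 minus that at 3 the ranges were RIGI -0.44 to 0.022, DHX58 -0.40 to 0.39, TLR3 -0.49 to 0.084 and MAVS -0.0062 to 0.21. For dark_14 minus dark_3 the range was DHX58 -0.16 to 0.63. For dark_42 minus dark_14 the range was TLR3 -0.011 to 0.43. For blue_14 minus blue_3 the range was DHX58 -0.12 to 0.43. For blue_42 minus blue_3 the range was DHX58 -0.081 to 0.12. For blue_42 minus blue_14 the ranges were IFIH1 -0.098 to 0.20 and DHX58 -0.41 to 0.15. EIF2AK2 for dark_14 minus dark_3 was 0.0018 with the filter at 5 CPM. With the replicate letter as a block, 3 of the 7 genes were called for blue_42 minus dark_42 and 5 for dark_42 minus dark_3, no call among the 7 changed in any comparison, and DHX58 for the light effect at 14 minus that at 3 was -0.036. Over 15 pairs of groups the correlation of the a minus b deviations ran from -0.442 (dark_14 with dark_42) to 0.405 (dark_42 with blue_42). Of these, 4 were above 0.1. Whether libraries of 1 letter shared handling was not tested. Depth limits DHX58 and TLR3 most, since the smallest library held 18 and 26 of their counts.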
